A study of Mus musculus with 9 samples.

Results

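AMP-activated protein kinase (AMPK) was followed through 8 genes, which were taken as the rows of the deposited count table that carry the symbols Prkaa1, Prkaa2, Prkab1, Prkab2, Prkag1, Prkag2, Stk11 and Camkk2. They are 8 of the 23413 genes in the table, and 7 of them were among the 11393 genes with enough counts to be tested. Prkag1 led the genes that were higher with the compound DPI than with vehicle when they are ranked by p, and the set was assembled around it. Prkag1 was thus chosen by its fold change and p in DPI against vehicle, and the values of that contrast are given as a description with no test.

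AMPK is a sensor of cellular energy built from a catalytic α subunit, a scaffolding β subunit and a γ subunit that binds adenine nucleotides, each of which is encoded by more than one gene. When AMP or ADP accumulates, the γ subunit favours the active form of the complex, and the kinase LKB1 (encoded by Stk11) or the calcium-dependent kinase CaMKK2 phosphorylates the α subunit. Active AMPK restrains lipid and protein synthesis and favours fatty acid oxidation, glucose use and autophagy, and in macrophages it is known for its links to the metabolism that accompanies inflammatory activation.

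The libraries came from liver macrophages of male C57BL/6 mice that began their diets at 5 weeks of age and stayed on them for 8 weeks. NC stands for 2 mice on normal chow, for which the labels give no treatment, Veh for 3 mice on a high-fat diet (HFD) injected with vehicle, and DPI for 4 mice on HFD injected with diphenyleneiodonium at 2 mg/kg every 5 days from week 3. Diet and injection therefore cannot be told apart in the comparisons with NC. The protocol field of the labels describes another treatment, 500 nM DPI or DMSO on purified cells for 24 h, and the groups are named here by diet and treatment as each sample was labelled. The cells were sorted as F4/80+CD11b+, with low Gr1 by the methods of the study, and the titles give 1 mouse to each library. The study states more mice in a group than there are libraries here, and whether any were pooled is not given in the sources used here.

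Total counts lay between 3534325 and 15585775 per library, and between 27.0% and 44.5% of them fell on Rn45s, a ribosomal RNA precursor. Values are CPM, which are counts scaled to a common library size with TMM factors, and 3 counts, the limit set by a count of 0, were worth 0.184 to 1.02 CPM, which covers counting error only. The macrophage genes Csf1r (385 to 751 CPM), Cd68 (235 to 392 CPM) and Emr1 (55.0 to 142 CPM), the gene of F4/80, were present in all 9 libraries. The Kupffer cell genes Clec4f and Timd4 had 0 counts in NC 1, Veh 2 and Veh 3, and their highest counts were 244 and 28 in NC 2. The sum over the 9 Kupffer cell markers was 225 to 964 CPM, and it was highest in Veh 2, where both of these genes were at 0. A lower value in sorted bulk RNA can come from fewer cells of a type or from less RNA per cell, which cannot be told apart.

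Prkag1, the γ1 subunit gene, had the highest level of the 8 genes per kilobase of transcript in all 3 groups, and it was the member that separated the groups. It was lowest with vehicle, intermediate on normal chow and highest with DPI, and no library of any group overlapped another group. Prkag1 was chosen by DPI against Veh, and the comparisons with NC share libraries with that contrast, so this is a description. Of all genes tested, 27.5% did not overlap in Veh against NC, 5.85% in DPI against Veh and 20.2% in DPI against NC. Prkag2 was higher in each Veh library than in each NC library, and Stk11 was lower with DPI than in NC in the mean, with 1 NC library far above the other. Prkaa1, Prkab1, Prkab2 and Camkk2 overlapped between all groups, and Prkaa2 was not detected.

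**Figure D1:**
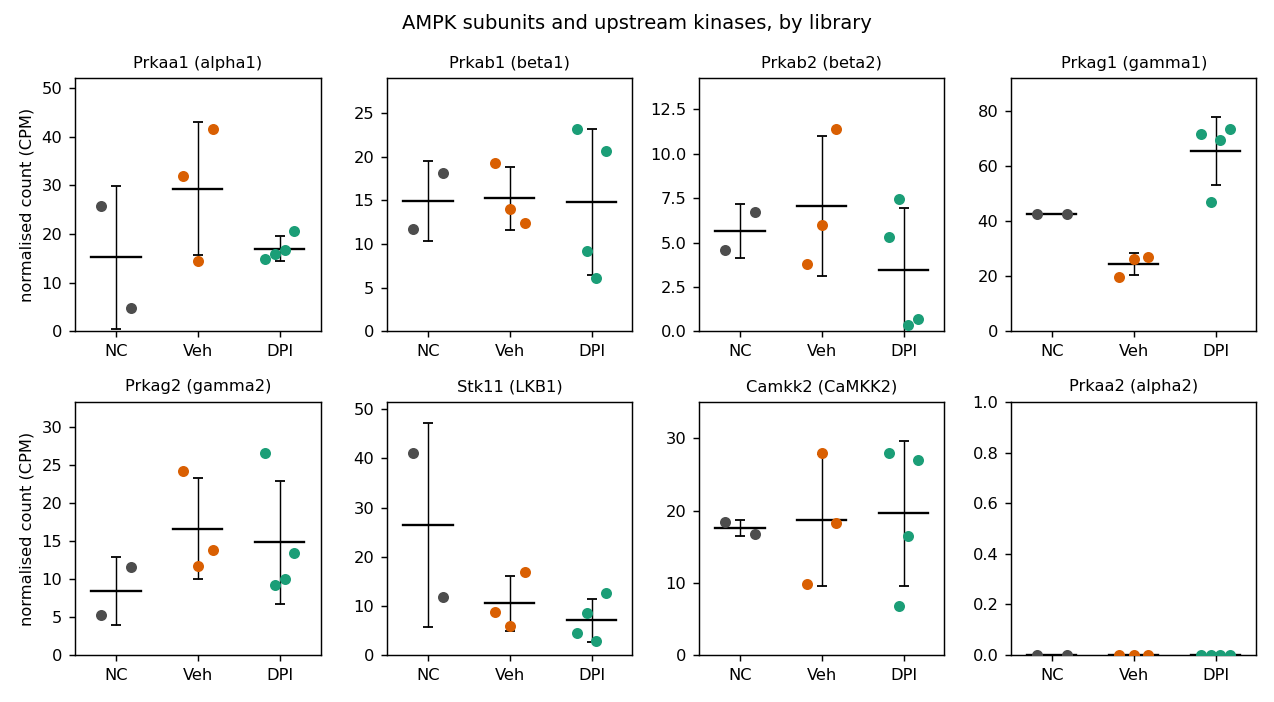
Normalised counts (CPM, TMM-scaled, linear axis from 0) of the 8 genes, with 1 point per library (NC n = 2, Veh n = 3, DPI n = 4), a horizontal line at the group mean and bars of 1 SD. Prkag1, which was chosen by DPI against Veh, is the gene whose 3 groups stand apart. Its Veh libraries lie between 19.8 and 27.0, NC at 42.4 and 42.6 and DPI between 46.9 and 73.4 CPM. Prkaa2 lies at 0 in every library.

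Of the catalytic subunits, α1 (Prkaa1, chromosome 15 from 5143861 to 5181899, GRCm38, plus strand) was present in every library and α2 (Prkaa2, chromosome 4 from 105029874 to 105109890, minus strand) had 0 counts in all 9. A count of 0 allows at most 3 counts, or 0.184 CPM in DPI 1, the deepest library, and 1.02 CPM in DPI 2, the shallowest. Prkaa1 had 25.7 and 4.86 CPM in the NC libraries, 32.0, 14.5 and 41.6 CPM in Veh and 14.8, 16.0, 16.7 and 20.6 CPM in DPI. The NC libraries lay on both sides of all 4 DPI libraries, and Veh 2 lay below every DPI library while the other Veh libraries lay above them. Mean and SD were 15.3 ± 14.7 CPM in NC (n = 2), 29.4 ± 13.7 CPM in Veh (n = 3) and 17.0 ± 2.51 CPM in DPI (n = 4). The log2 fold change of Prkaa1 was 0.94 ± 0.67 (SE) for Veh against NC (edgeR adjusted p = 0.579), and without NC 1 it was 2.59, past the threshold of the study. That value compares Veh with a single chow library of 26 Prkaa1 counts, and its spread comes from the other groups alone, as in every value below that leaves out an NC library. For DPI against NC it was 0.16 ± 0.62 (adjusted p = 0.954) and without NC 1 1.82, also past that threshold, which is an unadjusted p under 0.05 with a change of at least 2-fold. Without NC 2 the DPI to NC value was -0.56, so the 2 NC libraries gave opposite directions. The Veh to NC value lay between 0.22 and 2.59 when any 1 library was left out. The value for DPI against Veh was -0.78 ± 0.54.

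The scaffolding subunit β1 (Prkab1, chromosome 5 from 116013586 to 116024508, minus strand) had 11.7 and 18.1 CPM in NC, 19.3, 14.0 and 12.4 CPM in Veh and 23.2, 9.17, 6.12 and 20.6 CPM in DPI. All 3 groups overlapped, with both the highest and the lowest library in the DPI group. Mean and SD were 14.9 ± 4.57 CPM in NC (n = 2), 15.2 ± 3.63 CPM in Veh (n = 3) and 14.8 ± 8.38 CPM in DPI (n = 4). The log2 fold changes were 0.03 ± 0.64 for Veh against NC, -0.03 ± 0.54 for DPI against Veh and 0.00 ± 0.60 for DPI against NC, and the sign of each turned when the scaling or the libraries were changed. These standard errors leave room for a change near 2-fold in either direction within 2 SE.

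β2 (Prkab2, chromosome 3 from 97658193 to 97673812, plus strand) was the lowest of the detected members per kilobase, and had 4.55 and 6.72 CPM in NC, 3.77, 5.98 and 11.4 CPM in Veh and 5.33, 7.47, 0.371 and 0.714 CPM in DPI. DPI 3 and DPI 4 lay below every other library, and DPI 1 and DPI 2 lay inside the range of Veh. The lowest values rest on few counts, 2 in DPI 3 and 7 in DPI 4, against 87 and 22 in DPI 1 and DPI 2. The log2 fold change for DPI against Veh was -1.04 ± 0.98, and the values against NC were 0.32 ± 1.18 for Veh (edgeR adjusted p = 0.946) and -0.72 ± 1.09 for DPI (adjusted p = 0.865). Without DPI 2 the DPI values were -1.68 against Veh and -1.32 against NC, and without Veh 3 the DPI to Veh value was -0.52. Per kilobase, β1 made up 86.0% and 86.6% of the β1 and β2 signal in NC, 92.5%, 84.8% and 72.3% in Veh and 91.2%, 74.6%, 97.5% and 98.6% in DPI. The β1 share overlapped between all groups, and DPI 3 and DPI 4 had the highest shares.

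Prkag1, the γ1 subunit gene, lies on chromosome 15 from 98812797 to 98831521 on the minus strand of GRCm38. The stretch between its start and Kmt2d, the gene upstream on the same strand, is 147 bases long, and the sequence is shown because Prkag1 is the gene the set was built on and its promoter is set so close to a neighbour. The second stretch, 258 bases before Stk11, is shown for comparison as the promoter of the other member that passed the threshold of the study in a comparison. Both are RefSeq promoter sequence (GRCm38.p6) outside annotated exons, written 5′ to 3′ on the strand of the gene, chr15:98831522-98831668 on the minus strand for Prkag1 and chr10:80115545-80115802 on the plus strand for Stk11. Capitals mark matches on either strand to the letters searched, which were CCAAT for the CCAAT box of factor NF-Y, then CCGGAAG for the core bound by ETS factors, then GGGCGG for the GC box of Sp factors, then TGACG for the core of a cyclic AMP response element, and last CACGTG for the E-box of basic helix-loop-helix factors.
Prkag1: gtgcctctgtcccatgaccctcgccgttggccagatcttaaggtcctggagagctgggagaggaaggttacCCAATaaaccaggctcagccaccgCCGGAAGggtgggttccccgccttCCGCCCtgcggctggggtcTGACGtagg
Stk11: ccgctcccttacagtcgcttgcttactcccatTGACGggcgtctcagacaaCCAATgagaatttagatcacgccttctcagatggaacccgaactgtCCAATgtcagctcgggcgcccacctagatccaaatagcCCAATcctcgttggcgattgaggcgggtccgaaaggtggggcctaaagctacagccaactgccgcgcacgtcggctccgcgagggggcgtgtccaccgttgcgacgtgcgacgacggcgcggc

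The Prkag1 stretch held 1 CCAAT, 1 CCGGAAG, 1 GGGCGG and 1 TGACG match, and the Stk11 stretch held 3 CCAAT matches and 1 TGACG match. Over windows of 250 bases before to 50 after the start, CCAAT was found in 37.4% of 32851 RefSeq promoter windows, CCGGAAG in 8.86%, GGGCGG in 35.7%, TGACG in 20.8%, CACGTG in 7.15% and TATAAA in 13.6%. Among the 8 genes, 4 had a window with CCAAT, 2 with CCGGAAG, 7 with GGGCGG and 3 with TGACG, and none had CACGTG or TATAAA in these windows. A match describes the letters only and is not a measured binding site.

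In the libraries, Prkag1 had 42.6 and 42.4 CPM in NC, 19.8, 26.3 and 27.0 CPM in Veh and 71.7, 46.9, 69.2 and 73.4 CPM in DPI. Every Veh library lay below both NC libraries, and every DPI library lay above them, with DPI 2 the nearest to NC. The raw counts were 234 and 227 in NC, 89, 145 and 109 in Veh and 1170, 138, 373 and 719 in DPI, so each value rests on at least 89 counts. DPI 2, the lowest of its group, was also the library with the fewest counts and had 42.6% of them on Rn45s, and the part of either in its value was not tested. Mean and SD were 42.5 ± 0.158 CPM in NC (n = 2), 24.4 ± 4.00 CPM in Veh (n = 3) and 65.3 ± 12.4 CPM in DPI (n = 4).

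Prkag1 was 2.68-fold higher with DPI than with vehicle, a log2 fold change of 1.42 ± 0.31 (SE), which is the value that chose it and is given with no test. It stayed between 1.29 and 1.55 when any 1 library was left out, and was 1.41 without the Rn45s counts. Veh against NC gave -0.80 ± 0.35, and DPI against NC gave 0.62 ± 0.34. Both use libraries of the choosing contrast, so they too are descriptions. Next to it in the ranking by p of genes higher with DPI stood Prg2, an eosinophil granule gene, at a log2 fold change of 6.31. The less characterised Fam160b1 at 3.10 and Idh3b, a subunit of mitochondrial isocitrate dehydrogenase, at 1.09 followed. Prg2 had 0, 10 and 0 counts in Veh and 1296, 265, 2 and 468 in DPI, and its CPM overlapped between the groups. Fam160b1 had 7, 3 and 5 counts in Veh and 187, 33, 25 and 107 in DPI. The values of Prg2 and Fam160b1 thus rest on few Veh counts. Among all 11393 genes tested, 128 (1.12%) had every Veh library below every NC and every DPI library, and Prkag1 was the only one of the 7 members tested among them. This pattern contains the DPI to Veh difference that chose Prkag1, so its place there is a description. In Veh against NC the summed hepatocyte markers were also lower, at 163 to 200 CPM in Veh and 323 to 443 CPM in NC, with 9 of the 10 genes lower and Hnf4a at 0 in every library. The summed eosinophil markers were lower as well, at 59.0 to 73.5 CPM in Veh and 73.6 to 103 CPM in NC, although 4 of the 8 genes were higher and 2 lower, and the ranges nearly met. Of the macrophage genes 9 of 10 were lower in Veh than in NC in the mean, with overlapping sums (15424 to 26016 CPM in Veh and 19671 and 25562 CPM in NC), and Emr1 of the sort had 55.0 to 67.3 CPM in Veh and 139 and 115 CPM in NC. In DPI against Veh the sums of all 11 marker lists overlapped between the groups, but for 6 of them through 1 library only. With that library left out DPI lay above Veh for the eosinophil (DPI 3), hepatocyte (DPI 3 or Veh 1), dendritic cell (DPI 2 or Veh 1), macrophage (Veh 2) and platelet (Veh 1) lists and below it for the sinusoidal endothelial list (Veh 2). The summed eosinophil markers were 164, 178 and 113 CPM in DPI 1, DPI 2 and DPI 4 and 35.1 CPM in DPI 3, and the summed hepatocyte markers 342, 216 and 250.0 CPM and 197 CPM, with 4 of 8 and 6 of 10 genes higher in DPI in the mean. Against NC the Kupffer cell list (6 of 9 genes higher, 273 to 540 CPM in DPI and 225 to 238 CPM in NC) and the dendritic cell list (3 of 7 higher, 64.2 to 135 CPM and 55.7 to 61.3 CPM) did not overlap with DPI. The part of these cells in the Prkag1 values was not tested.

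Prkag1 is flanked and overlapped by other genes, and the sources used here do not state whether counting used strand. In GENCODE the antisense transcript B130046B21Rik covers 3281 bases of it, and the count table has no row under that symbol. Without strand, its reads in the shared bases cannot be told apart from those of Prkag1. Other members have opposite-strand partners too, over 6815 bases of Prkaa1 (Gm15938), 2520 of Prkab1 (Gm14508), 782 of Prkab2 (Gm17651) and up to 12327 of Prkag2 (3 genes), and the same limit holds for them. These partners have no rows under their symbols either. Kmt2d, a histone methyltransferase gene listed in the table under its older symbol Mll2, had 242 and 187 CPM in NC, 203, 126 and 212 CPM in Veh and 174, 181, 159 and 188 CPM in DPI. Its groups overlapped in each comparison, with log2 fold changes of -0.25 ± 0.31 for Veh against NC, -0.04 ± 0.26 for DPI against Veh and -0.29 ± 0.29 for DPI against NC. Kmt2d, which ends 147 bases upstream, did not separate the groups as Prkag1 did. Prkag1 was chosen for its DPI to Veh difference, so setting the genes side by side is a description. Whether they share reads was not tested.

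γ2 (Prkag2, chromosome 5 from 24862744 to 25100642, minus strand) had 5.28 and 11.6 CPM in NC, 24.2, 11.8 and 13.9 CPM in Veh and 26.7, 9.17, 10.0 and 13.5 CPM in DPI. Every Veh library lay above both NC libraries, though Veh 2 exceeded NC 2 by little, and DPI overlapped both groups. Mean and SD were 8.43 ± 4.45 CPM in NC (n = 2), 16.6 ± 6.64 CPM in Veh (n = 3) and 14.8 ± 8.10 CPM in DPI (n = 4). The log2 fold change was 0.98 ± 0.68 for Veh against NC (edgeR adjusted p = 0.567), 0.83 ± 0.64 for DPI against NC (adjusted p = 0.676) and -0.15 ± 0.54 for DPI against Veh. The values against NC depended on which library was left out, at 1.68 (Veh) and 1.53 (DPI) without NC 2, 0.53 (Veh) and 0.38 (DPI) without NC 1, 0.65 for Veh without Veh 1 and 0.37 for DPI without DPI 1. In Veh against NC the summed Kupffer cell markers (467 to 964 against 225 to 238 CPM, 3 of 9 genes higher), monocyte markers (4045 to 4853 against 3840 to 3852 CPM, 3 of 6 higher) and B cell markers (93.4 to 179 against 14.9 to 69.1 CPM, 5 of 5 higher) were higher too, and their part in the Prkag2 value was not tested. The remaining γ gene, Prkag3, known from skeletal muscle, had 0 to 4 counts in every library and was not tested.

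Set against each other per kilobase, γ1 made up 94.2% and 88.1% of the γ1 and γ2 signal in NC, 62.2%, 81.8% and 79.7% in Veh and 84.4%, 91.2%, 93.3% and 91.7% in DPI. Each Veh library had a lower γ1 share than each NC and each DPI library, and NC and DPI overlapped. The share contains Prkag1 and is not independent of how the set was chosen. γ1 was still the larger part in each of the 9 libraries.

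**Figure D2:**
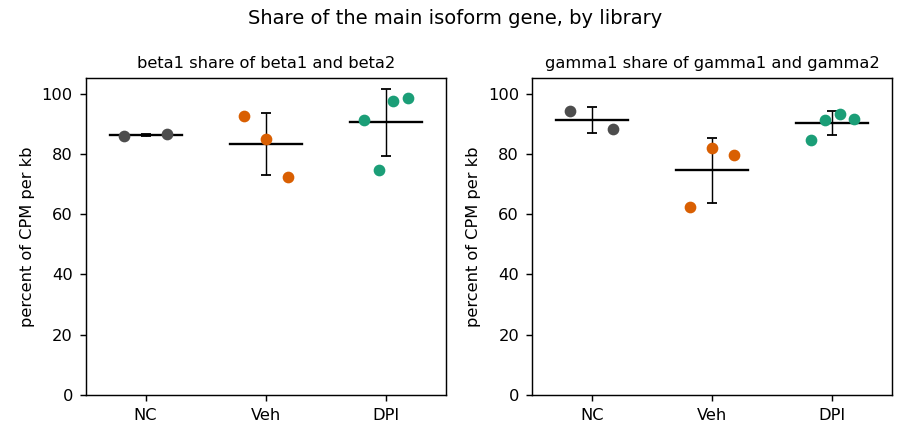
Share of β1 in the summed CPM per kb of β1 and β2 (left) and of γ1 in that of γ1 and γ2 (right), in percent on an axis from 0, with 1 point per library, a line at the group mean and bars of 1 SD (NC n = 2, Veh n = 3, DPI n = 4). The γ1 share lies between 62.2% and 81.8% in Veh and at 84.4% or above in the other libraries, while the β1 shares of the groups overlap.

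Of the upstream kinases, LKB1 (Stk11, chromosome 10 from 80115803 to 80130682, plus strand) is the tumour suppressor kinase that phosphorylates AMPK and its relatives. Stk11 had 41.2 and 11.8 CPM in NC, 8.66, 5.98 and 16.9 CPM in Veh and 4.47, 8.49, 2.78 and 12.6 CPM in DPI. NC 1 stood above all other libraries, and NC 2 lay inside the range of Veh and of DPI, so the groups overlapped. Mean and SD were 26.5 ± 20.8 CPM in NC (n = 2), 10.5 ± 5.66 CPM in Veh (n = 3) and 7.08 ± 4.37 CPM in DPI (n = 4). For DPI against NC the log2 fold change was -1.90 ± 0.71, with an unadjusted p of 0.0181 in edgeR's quasi-likelihood test, which passed the threshold of the study, and an adjusted p of 0.390. Without NC 1 it was -0.73 with an unadjusted p of 0.407 in the same edgeR test, with NC 2 as the single chow library and the spread taken from the other groups, so the call was not kept without NC 1. Without NC 2 the DPI to NC value was -2.51. For Veh against NC the log2 fold change was -1.34 ± 0.76 (adjusted p = 0.478), -0.16 without NC 1 and -1.95 without NC 2. For DPI against Veh it was -0.57 ± 0.65, -0.06 without Veh 3 and -1.02 without DPI 4. The marker lists that stood apart against NC are those given for Prkag1 and Prkag2, and their part in the Stk11 values was not tested. Cbarp, on the opposite strand, shares 232 bases with Stk11.

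CaMKK2 (Camkk2, chromosome 5 from 122731170 to 122779409, minus strand) couples calcium to AMPK. Its gene had 18.4 and 16.8 CPM in NC, 9.77, 27.9 and 18.3 CPM in Veh and 28.0, 6.79, 16.5 and 27.0 CPM in DPI. Both NC libraries lay inside the ranges of the other groups, which overlapped over most of their length. The log2 fold changes were 0.09 ± 0.64 for Veh against NC (edgeR adjusted p = 0.974), 0.08 ± 0.53 for DPI against Veh and 0.17 ± 0.61 for DPI against NC (adjusted p = 0.950).

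Levels of different genes were compared per kilobase of the longest coding transcript. Prkag1 stood first in each group, at 25.7 ± 0.0962 CPM per kb (SD, n = 2) in NC, 14.7 ± 2.42 (SD, n = 3) in Veh and 39.5 ± 7.50 (SD, n = 4) in DPI, and its lowest library exceeded the highest library of every other member in the same group. In NC the order then ran Stk11, Prkab1, Camkk2, Prkaa1 and Prkag2, in Veh Prkab1, Prkaa1, Prkag2, Stk11 and Camkk2, and in DPI Prkab1, Prkag2, Camkk2, Prkaa1 and Stk11. The libraries of neighbours in these middle places overlapped, except that both Prkab1 libraries (5.58 and 8.67 CPM per kb) exceeded both Camkk2 libraries (3.46 and 3.78 CPM per kb) in NC. Prkab2 came seventh, at 1.13, 1.41 and 0.694 CPM per kb in NC, Veh and DPI, below both Prkag2 libraries in NC and overlapping the member above it in Veh and DPI, and Prkaa2 came last at 0. Prkag1, Prkab2 and Prkaa2 held the same places when the union of all exons served as the length.

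No other member tracked Prkag1 closely across the 9 libraries. Pearson's r of log2 CPM with Prkag1 was 0.305 for Camkk2, -0.0938 for Prkab1, -0.12 for Prkag2, -0.266 for Stk11, -0.339 for Prkaa1 and -0.57 for Prkab2, where the points share 3 groups and the libraries' depth. The genes most like Prkag1 by the same measure were Prkacb, a catalytic subunit of protein kinase A (r = 0.909), Dpm1, a subunit of dolichol-phosphate mannose synthase (r = 0.892), and Tcaim (r = 0.886). Prkacb had 16.8 and 14.0 CPM in NC, 12.0, 11.4 and 10.4 CPM in Veh and 21.5, 18.7, 17.6 and 21.3 CPM in DPI, in the same order of groups with no overlap. Dpm1 and Tcaim were also below NC and DPI in every Veh library, at 29.4 to 32.0 and 0 to 0.725 CPM in Veh. Their NC and DPI libraries overlapped, at 35.9 and 43.3 against 40.6 to 49.2 CPM for Dpm1 and 1.82 and 3.74 against 2.38 to 6.49 CPM for Tcaim. Tcaim had 1, 4 and 0 counts in Veh, so its r includes values near the limit of 3 counts. These are descriptions over 9 points.

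Counted over the set, 0 of the 7 members tested passed the threshold of the study in Veh against NC, where 11.7% of all genes tested did. In DPI against NC 1 of 7 passed, Stk11, where 9.29% did. In DPI against Veh the 1 of 7 past it was Prkag1, which was chosen by this contrast, and nothing is read from that count beside the 2.84% of all genes. Groups that did not overlap were found for 2 of 7 members in Veh against NC (Prkag1 below, Prkag2 above; 27.5% of all genes in either direction), for 1 of 7 in DPI against Veh (Prkag1; 5.85%) and for 1 of 7 in DPI against NC (Prkag1; 20.2%). Each of these counts rests on 1 or 2 genes. No member had an edgeR adjusted p under 0.05 in any comparison, where 0.0614% of all genes did in Veh against NC, 0% in DPI against Veh and 0.00878% in DPI against NC. For DPI against Veh the smallest adjusted p of any gene was 0.999 in edgeR's quasi-likelihood test, 470 genes had an unadjusted p under 0.05, and DESeq2 and edgeR's likelihood ratio test called 2 and 1 genes after adjustment.

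**Figure D3:**
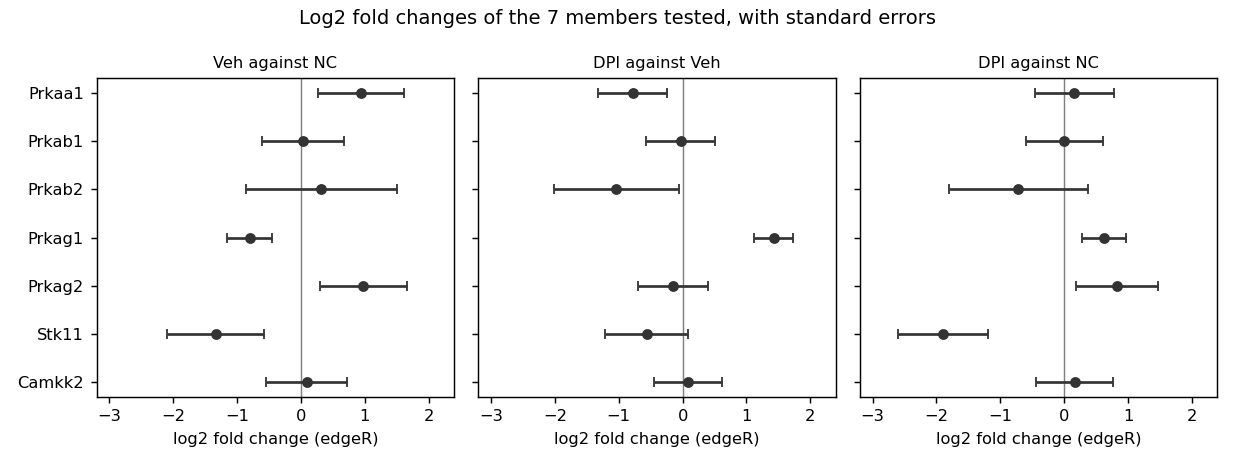
Log2 fold changes from edgeR (points) with standard errors (bars) for the 7 members tested, in the comparisons of Veh with NC, DPI with Veh and DPI with NC, where values right of 0 are higher in the first group. Prkag1 has the narrowest bars and lies at -0.80, 1.42 and 0.62, the middle value being the one that chose it, and Stk11 lies lowest against NC, at -1.34 and -1.90.

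The other genes of the pathway were read from lists of partners of the upstream kinases, related kinases, phosphatases and regulators, substrates and transcriptional output. In Veh against NC, 4 of 25 substrates tested passed the threshold of the study as higher and none as lower, where 7.03% of all genes passed as higher and 4.63% as lower. They were Foxo3, a stress-response transcription factor, Pfkfb3, which makes the activator of phosphofructokinase, Crtc2, a coactivator of CREB, and Srebf2, the regulator of cholesterol synthesis. Foxo3 had 12.2 and 27.6 CPM in NC and 31.7 to 122 CPM in Veh (log2 fold change 2.20 ± 0.58, edgeR adjusted p = 0.166). Pfkfb3 had 12.0 and 18.2 CPM in NC and 53.1 to 74.6 CPM in Veh (2.01 ± 0.58, adjusted p = 0.213). For both genes every Veh library exceeded both NC libraries. Srebf2 had 10.7 and 22.8 CPM in NC and 28.1 to 82.1 CPM in Veh (1.59 ± 0.62, adjusted p = 0.326), also without overlap, and it lost the call without NC 1 (1.16) or Veh 1 (1.10). Crtc2 had 9.0 and 27.9 CPM in NC and 25.4 to 76.4 CPM in Veh (1.56 ± 0.59, adjusted p = 0.314), with overlap, and it lost the call without NC 2 (0.99) or Veh 1 (1.29). The median over the 25 substrates was 0.00, beside 0.03 over all genes tested, so the list as a whole was centred near the other genes. The marker lists that stood apart in Veh against NC apply to these genes too, and their part was not tested.

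Of the 10 phosphatases and regulators tested in Veh against NC, 1 passed as higher and 2 as lower, beside the 7.03% and 4.63% of all genes, with a list median of -0.27 beside 0.03 over all genes. The one higher was Sesn1, a sestrin that activates AMPK under stress, at 1.82 and 8.78 CPM in NC and 4.00, 33.0 and 27.3 CPM in Veh (2.01 ± 0.92, edgeR adjusted p = 0.378). The lower ones were the phosphatase genes Ppm1a (-1.94 ± 0.83, adjusted p = 0.356) and Ppp2ca (-1.25 ± 0.57, adjusted p = 0.375), for which the groups overlapped. Without NC 1 none of the 3 passed, and Ppm1a turned to 0.35. Their calls were also lost when some Veh libraries were left out, Sesn1 at 1.56 without Veh 2 and 1.86 without Veh 3, Ppp2ca at -1.38 and -0.87, and Ppm1a at -1.76 without Veh 1 and -1.57 without Veh 2, so that apart from Ppp2ca without Veh 3 the fold stayed past 2 and only the p crossed the threshold. Of the 16 partners of the upstream kinases 1 passed as higher, Cab39, which encodes the MO25 scaffold of LKB1, at 2.80 and 10.6 CPM in NC and 20.3 to 34.9 CPM in Veh (1.95 ± 0.69, adjusted p = 0.289), and its call was lost without NC 2 (1.32). Cab39 lay between 1.32 and 3.21 when any 1 library was left out. None of the 12 related kinases or of the 8 transcriptional output genes tested passed, beside the same shares of all genes. Foxo3 and Pfkfb3 passed under all 13 alternative settings tried in this comparison, although without NC 2 Foxo3 moved to 2.93 and without NC 1 to 1.74, while Srebf2 lost the call under 4 of them and the other genes named under 1 to 6.

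In DPI against NC, 2 of 25 substrates passed as higher and none as lower, where 6.24% and 3.05% of all genes did. These were Foxo3, at 35.6 to 59.7 CPM in DPI (1.35 ± 0.54, edgeR adjusted p = 0.417), with every DPI library above NC, and Pfkfb3, at 17.0 to 57.2 CPM in DPI (1.33 ± 0.54, adjusted p = 0.427), with overlap. Sesn1 was higher, at 17.5 to 54.7 CPM in DPI (2.38 ± 0.91, adjusted p = 0.403), with every DPI library above NC, and Ppm1a was lower (-1.71 ± 0.76, adjusted p = 0.453), among 10 phosphatases and regulators with a median of -0.72 beside 0.04 over all genes. Without NC 1 that median was 0.13, Foxo3 stood at 0.88, Sesn1 at 1.66 and Ppm1a at 0.58, and none of the 3 passed. Pfkfb3 lost its call without NC 2, DPI 3 or DPI 4, at 1.05 to 1.08, and with library size scaling (1.13) or a fit of the 2 groups only (1.35), and Foxo3 and Sesn1 also lost theirs without DPI 4, at 1.26 and 1.80. Ppm1a lay between -1.58 and -1.83 when a DPI library was left out, close to its value with all of them, with unadjusted p-values of 0.0558 to 0.0861 in edgeR's test, over the threshold each time. Leaving out NC 2 moved these values the other way, with Foxo3 at 2.08, Sesn1 at 3.94, Ppm1a at -2.53 and the median of the phosphatases and regulators at -0.86. The partners, the related kinases and the transcriptional output genes gave no call.

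In DPI against Veh, whose values are a description, 1 of 25 substrates was past the threshold as lower and none as higher, where 1.34% and 1.5% of all genes were. Srebf2 had 28.1 to 82.1 CPM in Veh and 11.2 to 38.2 CPM in DPI (log2 fold change -1.17 ± 0.49). Of the transcriptional output genes, Ppargc1b, a coactivator of mitochondrial genes, was past it as lower, at 5.80 to 19.1 CPM in Veh and 0.816 to 6.45 CPM in DPI (-2.00 ± 0.86). Of the 12 related kinases tested, 11 had negative values, with a list median of -0.20, and none of these was past the threshold. The remaining one, Nuak1, was past it as higher, but it had 0 counts in the 3 Veh libraries and 34, 9, 2 and 2 counts in DPI, at least 2.2-fold higher when 3 counts per library are taken as the floor for Veh. That bound rests on DPI 1 and DPI 2, since it was 1.86-fold without DPI 1 and 1.36-fold without DPI 2, and DPI 3 and DPI 4 had no more counts than the floor. Without Veh 1, Srebf2 (-0.63) and Ppargc1b (-1.36) were smaller and no longer past the threshold. Srebf2 was also not past it without DPI 1, DPI 2 or DPI 4 (-1.07, -0.96 and -1.16), nor Ppargc1b without DPI 1, DPI 3 or DPI 4 (-1.70, -2.10 and -1.67), nor Nuak1 without any 1 of the Veh libraries, though most of these values stayed close to those with all libraries. Nuak1 had too few counts to be fitted without DPI 1, without DPI 2, without Rn45s or with the 2 groups only. Srebf2 was also not past it with library size scaling (-1.07). List medians for DPI against Veh lay between -0.20 and 0.14, beside 0.04 for all genes.

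**Figure D4:**
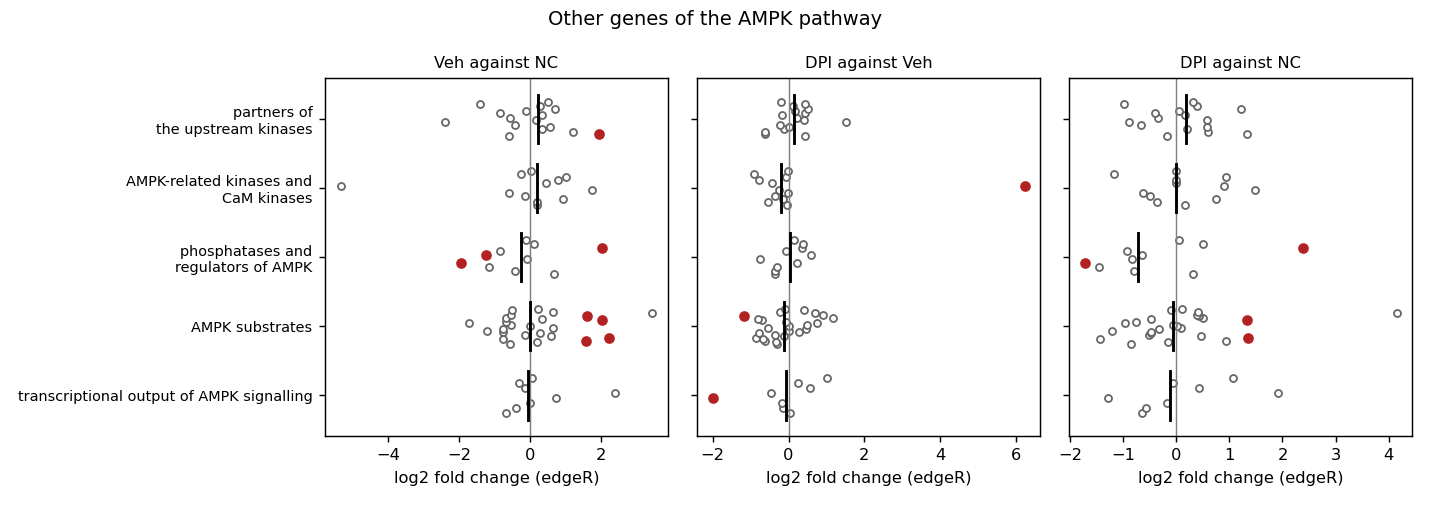
Log2 fold changes from edgeR of the other AMPK pathway genes tested, by list and comparison, where open circles are genes that did not pass the threshold of the study, filled red circles are genes that did, and black lines are list medians. The horizontal axes differ between panels, and the red point at the far right of the DPI to Veh panel is Nuak1, whose fitted value depends on 0 counts in Veh. Of 25 substrates 4 are red in Veh against NC, 1 in DPI against Veh and 2 in DPI against NC.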

How the data were processed

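RNA-seq counts of 9 mouse libraries were used. The authors deposited whole-number raw counts per gene for 23413 genes on mm10, without normalization. The methods of the study name bowtie2 and RSEM, while the submitters' processing notes name TopHat2 and edgeR, and strand use is not given in the sources used here. The labels gave the groups. Testing used edgeR 4.0.16 under R 4.3.3 (filterByExpr, TMM, quasi-likelihood test, 1 fit of all 9 libraries), with Benjamini-Hochberg adjustment over the 11393 genes tested. SE is the size of the log2 fold change over the root of F. The threshold of the study is an unadjusted p under 0.05 with a change of at least 2-fold. p-values measure the spread between these libraries, which their titles tie to 1 mouse each.

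Positions and lengths came from GENCODE M21 and promoters from RefSeq, and all 8 symbols matched both. Other settings tried were RLE scaling, library size scaling, no filter, DESeq2 1.42.0, the likelihood ratio test, fits of 2 groups, the replicate number as a block, removal of Rn45s, and leaving out each library. For the named pathway genes the same alternatives were added after seeing the data. The members and lists were chosen with earlier results of these data known. All 8 members were named, with up to 3 genes per list past the threshold by p (Srebf2 in Veh against NC was named after its values were seen) and the 3 genes most correlated with Prkag1. The edgeR step was tested on simulated data with planted changes larger than most of those given here, so its power for smaller changes was not tested. Where 1 of the 2 chow libraries was left out, the remaining one was assumed to vary like the libraries of the other groups, which alone then gave the spread.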

Additional observations from a re-analysis of the deposited data

Results flagged for a closer look

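In the DPI group, which is the only one with 4 libraries and so the only one to which Dixon's test was applied, 2 of 20 genes had 1 library apart from the others. Prkag1 in DPI 2 was low, at 46.9 CPM, where the other DPI libraries lay between 69.2 and 73.4 CPM. It still exceeded every Veh and NC library, and without DPI 2 the log2 fold change of Prkag1 was 1.55 against Veh and 0.79 against NC. Sesn1 in DPI 4 was high, at 54.7 CPM, where the others lay between 17.5 and 20.2 CPM. Chance alone marks about 1 group in 20 by this test.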

How the results depend on the processing

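Prkag1 kept its direction in Veh against NC and in DPI against NC under all alternatives tried; both share libraries with the contrast that chose it. In DPI against Veh DESeq2 gave 1 member with an adjusted p under 0.05, Prkag1, where the other settings gave 0; this contrast chose Prkag1, so neither value is support for it. In Veh against NC, library size scaling put 2 members past the threshold, Prkag1 at -1.10 and Stk11 at -1.70, and leaving out 1 library gave 0 to 1 (Prkaa1 without NC 1, Stk11 without NC 2). The cause was not tested. Library size scaling moves the median over all genes from 0.03 to -0.26 in Veh against NC, and the calls from 801 higher and 528 lower to 539 and 933, so its values are read against that shift.

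Signs near 0 turned. Under library size scaling Camkk2 (-0.20), Prkab1 (-0.24) and Prkab2 (-0.017) turned in Veh against NC, Prkab1 (0.071) in DPI against Veh, and Prkaa1 (-0.075) and Prkab1 (-0.17) in DPI against NC. In DPI against NC Prkab1 was -0.042 with RLE scaling and -0.040 with DESeq2. Deviations from the group means had r from -0.02 to 0.08 over 7 same-numbered pairs and from -0.08 to 0.06 over 19 other pairs. With 2 NC libraries the deviations of 1 mirror those of the other, so the pairs are not independent. Whether the numbers pair the libraries cannot be told from these values. With the replicate block Camkk2 was -0.18 in DPI against Veh and -0.036 in DPI against NC, Prkab1 was -0.14 in the latter, and the counts of members past the threshold stayed as they were. Of the pathway genes named, Srebf2, Ppm1a and Ppp2ca were no longer past it with the block in Veh against NC (1.28, -1.97 and -1.07), Foxo3, Pfkfb3 and Ppm1a in DPI against NC (1.21, 0.52 and -1.54), and Srebf2 and Ppargc1b in DPI against Veh (-1.27 and -1.48), as was Nuak1, which has 0 counts in Veh. For several of these the fold was as large as without the block, and the p alone crossed the threshold.

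When 1 library was left out, Camkk2 ranged from -0.32 to 0.45 (Veh against NC), -0.24 to 0.49 (DPI against Veh) and -0.055 to 0.48 (DPI against NC), and Prkab1 from -0.24 to 0.41, -0.34 to 0.22 and -0.30 to 0.39. Prkab2 ranged from -0.15 to 0.66 in Veh against NC, Prkag2 from -0.60 to 0.21 in DPI against Veh, and Prkaa1 from -0.56 to 1.82 in DPI against NC. Ppm1a ranged from -2.76 to 0.35 in Veh against NC and from -2.53 to 0.58 in DPI against NC.

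Genes called after adjustment numbered 7, 0 and 1 in the 3 comparisons, 312, 2 and 219 with DESeq2, 280, 1 and 186 with the likelihood ratio test, 52, 0 and 22 without a filter, 568 and 572 against NC without NC 2, and 3 and 4 without NC 1. A biological coefficient of variation of 0.65 and 2 to 4 libraries per group limit these comparisons.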
